A study of Mus musculus with 12 samples.

Results

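Thy1 (CD90) and the LY6 proteins are small glycoproteins that a glycosylphosphatidylinositol (GPI) anchor holds in the outer leaflet of the plasma membrane. Thy1 has an immunoglobulin fold, sits in lipid rafts beside Src-family kinases and is carried by nearly every mouse T cell. LY6 proteins share a compact disulfide-bonded domain with the urokinase receptor uPAR, and many of their genes lie side by side on mouse chromosome 15. Ly6A (Sca-1) and Ly6C are surface markers of activated and memory CD8+ T cells, Ly6D of early lymphoid cells, and Ly6E is an interferon-inducible member.

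The 6 genes described here, *Thy1*, *Ly6a*, *Ly6c1*, *Ly6c2*, *Ly6d* and *Ly6e*, were among 25860 genes listed for RNA-seq. The ATAC-seq table listed 23932 peaks of open chromatin, and 18 of them were assigned to these genes. Members were selected on family and with their RNA and accessibility in UTX TCD against WT cells already in view. Their genotype differences in both assays are therefore given as a description, and no p-value is printed for them.

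All cells were progenitor-type CD8+ T cells sorted from the pancreatic lymph nodes of nonobese diabetic (NOD) mice carrying the transgenic NY8.3 T cell receptor, which recognizes a β cell antigen. In UTX TCD mice, floxed *Kdm6a*, the X-linked gene for the histone demethylase UTX, was deleted by Cre driven from the *Lck* promoter, which acts in all developing T cells. Mice with the floxed allele and the Cre had been backcrossed from C57BL/6 to NOD, and Cre-negative littermates with floxed *Kdm6a* served as WT. Each assay had 3 libraries per genotype. The gate was Ly108 without CXCR6 in the series description and Ly108 without CD39 in the methods of the study, and the age of these mice is not given in the sources used here.

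WT replicates 1 to 3 held 146456724, 144503203 and 193568919 counted RNA reads, and UTX TCD replicates 1 to 3 held 61512402, 175462433 and 187275082. UTX TCD replicate 1 was the shallowest library. RNA values are normalized counts, the reads of a gene divided by a size factor per library. A value of 3 reads, the limit that a count of 0 allows, ranged from 2.21 normalized counts in UTX TCD replicate 3 to 6.75 in UTX TCD replicate 1, and it covers counting error only.

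*Kdm6a* itself was listed at 28365, 28949 and 29172 normalized counts in WT and at 24158, 24792 and 24579 in UTX TCD. The UTX TCD libraries were all lower, with a log2 fold change of -0.23 ± 0.04 (SE; limma adjusted p = 0.00114; n = 3 per genotype). A sum over all exons does not measure the loss of a floxed part of the gene, so it is no full check of the deletion. Its Y-linked homolog *Uty* had at most 1 read in any library.

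The labelled cell type was visible in the RNA. *Cd8a*, the CD8 co-receptor α chain, averaged 272155 ± 2012 normalized counts in WT and 298501 ± 23849 in UTX TCD (SD, n = 3), and *Cd3e*, a chain of the CD3 complex, 139315 ± 6093 and 156333 ± 8038. *Slamf6*, which encodes Ly108, had 28378 ± 5425 and 34357 ± 2989, and *Entpd1*, which encodes CD39, had 17.3 ± 10.7 and 7.24 ± 4.82. *Cxcr6* was present in both genotypes and fell from 12033 ± 2146 to 5658 ± 355 (log2 fold change -1.07 ± 0.12 SE, limma adjusted p = 1.31e-04). In bulk RNA, fewer cells with a transcript and less of it per cell cannot be told apart, and this holds for *Thy1* and every other gene below.

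*Thy1* was the member with the largest difference. WT replicates 1 to 3 had 169977, 135061 and 163387 normalized counts, and UTX TCD replicates 1 to 3 had 34422, 33235 and 21887. Every UTX TCD library lay far below every WT library, the lowest WT value being 3.92 times the highest UTX TCD value. The means were 156142 ± 18552 in WT and 29848 ± 6920 in UTX TCD (SD, n = 3), so that UTX TCD held 19.1% of the WT level. On the log2(normalized count + 1) scale used for all fold changes, the difference was -2.41 ± 0.16 (SE). *Thy1* ranked 82 among all listed genes by mean normalized count in WT and 1052 in UTX TCD.

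*Ly6e* went the other way. It had 34747, 41160 and 35091 normalized counts in WT replicates 1 to 3 and 58237, 59380 and 59900 in UTX TCD replicates 1 to 3. The genotypes did not overlap, the UTX TCD libraries lay close together, and the lowest of them was 1.41 times the highest WT library. Means were 36999 ± 3608 and 59172 ± 851 (SD, n = 3), with a log2 fold change of 0.68 ± 0.07 (SE).

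*Ly6a* was high in both genotypes. Its normalized counts were 72563, 64477 and 71967 in WT and 71634, 75123 and 90803 in UTX TCD. UTX TCD replicate 1 lay inside the WT range and UTX TCD replicate 3 stood highest, so the genotypes overlapped. Means were 69669 ± 4506 and 79187 ± 10210 (SD, n = 3), with a log2 fold change of 0.18 ± 0.09 (SE).

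*Ly6c1*, *Ly6c2* and *Ly6d* were near the detection limit in these cells. *Ly6c1* had 6.93, 12.8 and 9.15 normalized counts in WT and 18.0, 9.61 and 14.7 in UTX TCD, which came from 7 to 20 reads per library. *Ly6c2* had 8.92, 16.8 and 6.10 in WT and 13.5, 2.4 and 9.58 in UTX TCD, and its lowest library, UTX TCD replicate 2, had 3 reads. *Ly6d* had 6.93, 13.8 and 6.10 in WT and 20.2, 18.4 and 11.1 in UTX TCD. In all 3 genes the genotypes overlapped. The log2 fold changes of 0.50 ± 0.42 (SE) for *Ly6c1* and 0.86 ± 0.45 for *Ly6d* rest on these few reads, and *Ly6c2* was below the mean of 10 normalized counts needed to enter the fit.

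**Figure D1:**
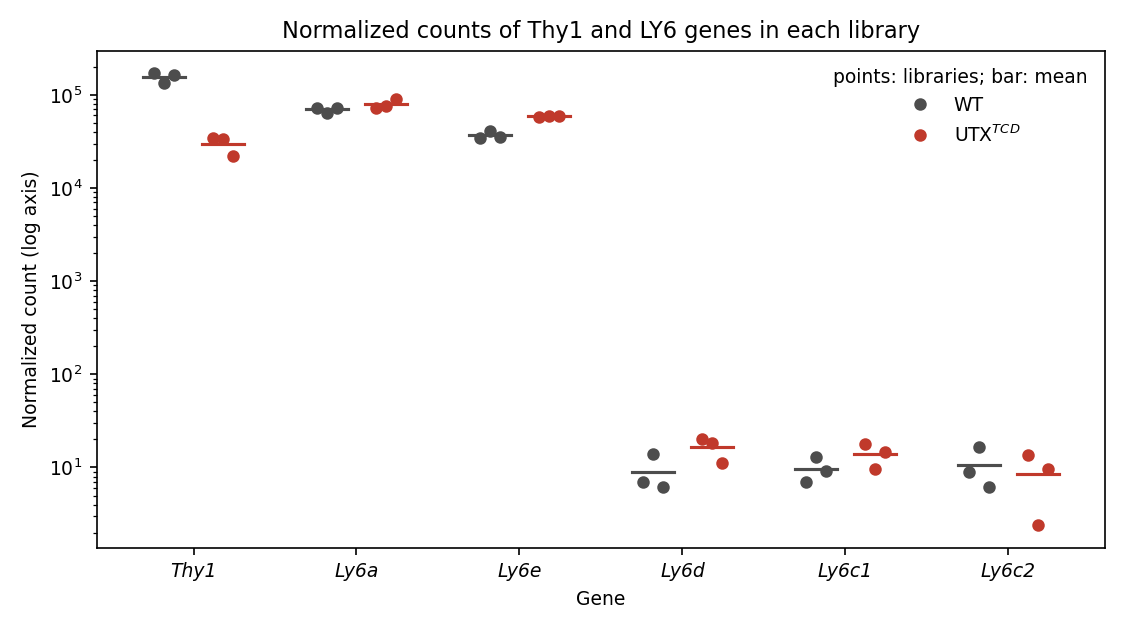
Normalized counts (log axis) of the 6 genes in the 3 WT and 3 UTX TCD RNA-seq libraries, with bars at the mean. *Thy1* is lower and *Ly6e* higher in every UTX TCD library, *Ly6a* overlaps between genotypes, and the other genes lie at 20.2 normalized counts or less.

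Of the 6 members, 5 were among the genes in the fit, and 2 of these, *Thy1* lower and *Ly6e* higher, are in the set past the call limits, which were an adjusted p from limma below 0.05 together with a log2 fold change beyond 0.5 in either direction. Over all 14459 genes tested, 17.6% passed, 7.05% of all tested genes being lower and 10.5% higher. The same 2 members had genotypes that did not overlap, against 51.9% of all genes tested. Because this contrast chose the members, nothing is read from these counts.

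Divided by the length of all RefSeq exons of a gene, the order of the levels differed between genotypes. In WT, *Thy1* stood at 89995 ± 10693 normalized counts per kilobase, *Ly6a* at 69530 ± 4497 and *Ly6e* at 9468 ± 923 (SD, n = 3). The lowest *Thy1* library, at 77845 per kilobase, was above the highest *Ly6a* library, at 72418, so this order held in all WT libraries. In UTX TCD, *Ly6a* led with 79029 ± 10190 normalized counts per kilobase, followed by *Thy1* with 17203 ± 3989 and *Ly6e* with 15141 ± 218. *Thy1* and *Ly6e* did not differ there beyond their spread, since *Thy1* was above *Ly6e* in UTX TCD replicates 1 and 2 and below it in replicate 3, at 12615 against 15328. This depends on the divisor, which counts all exons of a gene and was 1735 bases for *Thy1* and 3908 for *Ly6e*. In undivided normalized counts *Ly6e* was above *Thy1* in every UTX TCD library, with means of 59172 ± 851 and 29848 ± 6920 (SD). *Cd3e* had 91836 ± 4017 per kilobase in WT, which places *Thy1* transcript in WT cells beside that of a T cell receptor subunit. *Ly6d*, *Ly6c2* and *Ly6c1* stayed at or under 29.3 normalized counts per kilobase in every library. On this scale *Ly6d* was above *Ly6c1* in every library, with no overlap in either genotype, and above *Ly6c2* without overlap in UTX TCD only. In WT the reads themselves were alike, at 7, 14 and 8 for *Ly6d* and 7, 13 and 12 for *Ly6c1*. The WT order of these 2 genes thus rests on exon lengths of 691 and 1761 bases and on few reads.

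Sequence identity limits what can be said of the LY6 genes. Of all windows of 50 bases, the length of a read, in the RefSeq exons of *Ly6c1*, 38.5% occurred again on chromosome 15 in the reference genome, as did 27.0% of those of *Ly6c2* and 27.2% of those of *Ly6a*. No such window of *Ly6d* or *Ly6e* recurred on chromosome 15, and no window of *Thy1* recurred on chromosome 9. Reads of *Ly6a*, *Ly6c1* and *Ly6c2* could thus be shared with or lost to their copies, and NOD reads were aligned to a C57BL/6 reference. The strand setting and gene annotation of the count are not given in the sources used here.

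*Thy1* spans chr9:44043384-44048579 on the plus strand (GRCm38, which is mm10). Within 250 kb of it, 13 other genes were listed, 8 were tested, 2 passed as higher and 0 as lower, where 10.5% of all genes tested were called higher and 7.05% lower. By limma, 4 of the 8 had an unadjusted p under 0.05, all of them higher, and edgeR and DESeq2 also called 0 lower and 2 higher. The median log2 fold change of the 8 was 0.35, against 0.00 over all genes tested. *Nlrx1*, a mitochondrial innate immune regulator, rose from 370 ± 20.1 to 779 ± 30.8 normalized counts (log2 fold change 1.07 ± 0.10 SE, limma adjusted p = 4.70e-05). *Abcg4*, a sterol transporter, rose from 25.5 ± 2.94 to 68.4 ± 14.2 (1.37 ± 0.26, adjusted p = 0.00297). The nearest tested gene, *Usp2*, a deubiquitinase whose gene starts 18441 bases past the end of *Thy1*, had 875 ± 59.5 and 1172 ± 99.5 normalized counts, with a log2 fold change of 0.42 under the limit. *Nectin1*, *Rnf26*, *Mcam*, *Cbl* and *Hinfp* did not pass either, with log2 fold changes of 0.65, -0.08, 0.27, 0.07 and 0.20. *Nectin1* passed without UTX TCD replicate 3, at 0.95 (adjusted p = 0.0393). Among these genes *Cbl*, a ubiquitin ligase of T cell receptor signalling, was the most abundant, at 41967 ± 1204 and 43938 ± 502. *Gm3898*, *C1qtnf5*, *Mfrp*, *Gm10687* and *Ccdc153* were listed at 4.95 normalized counts or less in every library and were not tested.

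The LY6 genes lie in a stretch of 350 kb, chr15:74762056-75112066, that holds *Ly6d* at its start and *Ly6c2* at its end. Besides the members, 8 genes were listed there and 3 were tested by limma, of which 0 were called and 1, *Ly6i*, had an unadjusted p under 0.05. edgeR and DESeq2 also called 0. *Ly6i* had 37.6, 47.4 and 47.3 normalized counts in WT and 74.2, 56.1 and 75.9 in UTX TCD (log2 fold change 0.62 ± 0.24 SE, adjusted p = 0.0642). With library sums made equal *Ly6i* passed the limits, at 0.685 (adjusted p = 0.048). *Ly6k* had 476, 945 and 520 in WT and 592, 519 and 1112 in UTX TCD, so that each genotype had a library about as high as any in the other. *Ly6g6g* stayed at 20.6 or less. *Gml*, *Gml2* and *Cyp11b2* were listed at 0 in every library, and *Cyp11b1* and *Ly6m* at fewer than 5 normalized counts. *Ly6e* and *Ly6i* were thus higher in every UTX TCD library than in any WT library, while *Ly6a*, between *Ly6e* and *Ly6c1*, overlapped.

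Accessibility was described from the authors' group means, log2 normalized reads per peak, which come without values per library. The table held only peaks that the authors had called different at a false discovery rate under 0.05, so a gene with no listed peak may still have had open chromatin. *Thy1* had 15 listed peaks, *Ly6e* had 3, and *Ly6a*, *Ly6c1*, *Ly6c2* and *Ly6d* had 0. All 18 were lower in UTX TCD, where 31.2% of all listed peaks were lower, and 14 were lower by more than 0.5, against 23.8% of all. The same contrast chose the members, and nothing is read from these counts. Only reads that mapped uniquely were kept for ATAC-seq, and the part this played at copied LY6 sequence was not tested.

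The 15 *Thy1* peaks spanned 77.8 kb, chr9:43975429-44053273, and no other listed peak lay between them. The 1 promoter peak, chr9:44043184-44043584, covered the start of the gene and part of the first exon. It was the tallest of the 15 in WT, at 10.90, and stood at 9.60 in UTX TCD, a difference of -1.30 or 40.6% of WT. The peak annotated to intron 3, chr9:44047028-44047428, had the smallest difference, -0.32, with 9.61 in WT and 9.30 in UTX TCD. It also overlapped a RefSeq exon of *Thy1*. The largest differences were upstream. At chr9:44017891-44018291, 25293 bases before the start, the group means were 8.87 and 6.98, a difference of -1.89 or 26.9% of WT, which ranked 439 among all listed peaks from the most negative. At chr9:44013654-44014054, 29530 bases before the start, they were 8.41 and 6.86, a difference of -1.55.

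Differences varied along the upstream stretch and, from 23428 bases on, grew toward the promoter. Between 31258 and 13585 bases before the start, the peaks at 31258, 26716, 23428, 19038 and 13585 bases had differences of -0.67, -1.09, -0.35, -0.52 and -0.90. The peak 2151 bases before the start, chr9:44041033-44041433, had 9.86 in WT and 8.74 in UTX TCD, a difference of -1.12. These upstream peaks and the 2 with the largest differences, 8 in all, lay inside the RefSeq noncoding gene *Gm39323*, chr9:44010450-44042184, for which no RNA value was used here. A further group sat farther out, where peaks 67755, 58530, 55216 and 53970 bases before the start had differences of -1.01, -0.45, -1.05 and -1.05. The last peak, 9689 bases past the start, was the lowest in WT at 7.23 and had a difference of -0.91. Over the 15 peaks the median difference was -1.01, and 11 lay more than 10 kb from the start.

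Past the outermost *Thy1* peaks, the nearest listed peak upstream was the promoter of *Nectin1*, 231 kb away, which was higher by 0.91. Downstream, 36.0 kb away, a peak in intron 3 of *Usp2* was lower by a difference of -0.44, and the *Mcam* promoter peak 81.5 kb away was higher by 0.48. A peak in intron 5 of *Mcam*, 84.8 kb away, was lower by a difference of -0.97. Of the 48 genes with 15 or more listed peaks, *Thy1* and 8 others, 9 in all, had lower values in every listed peak.

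**Figure D2:**
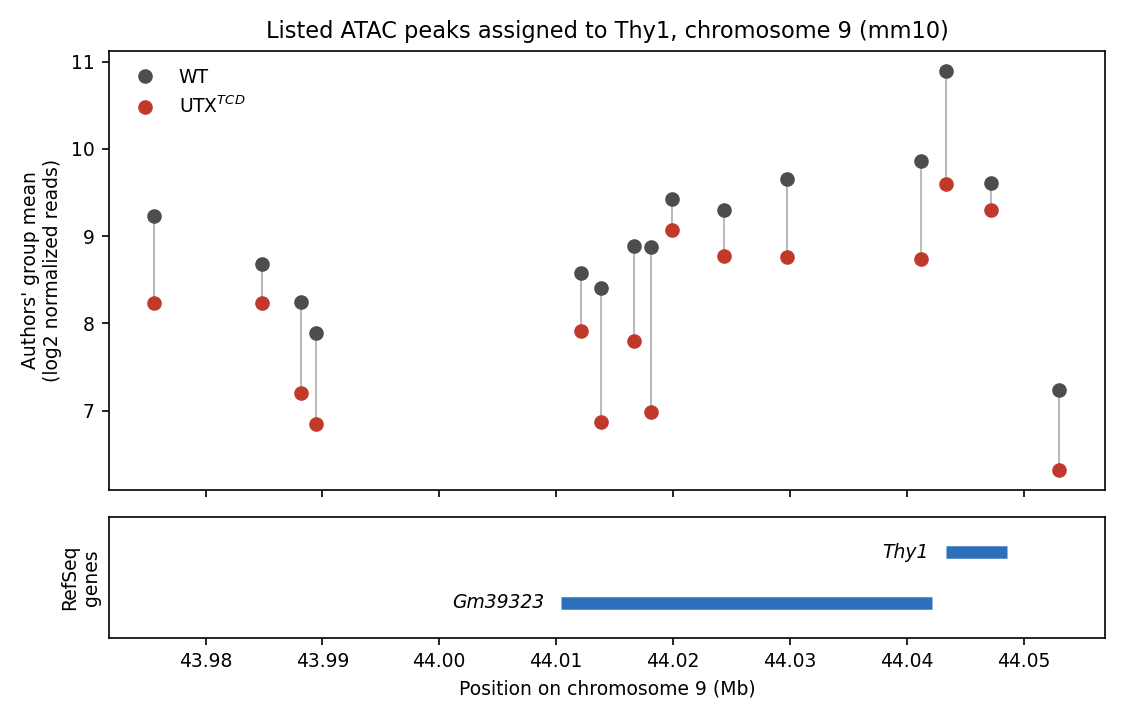
Authors' group means (log2 normalized reads) of the 15 listed ATAC peaks assigned to *Thy1* against position on chromosome 9 (mm10), with WT and UTX TCD joined by a line for each peak and RefSeq genes below. Every peak is lower in UTX TCD, with the largest difference, -1.89, 25293 bases before the *Thy1* start.

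The 3 *Ly6e* peaks were lower while *Ly6e* RNA was higher. The peak annotated as intronic, chr15:74957391-74957791, 2485 bases past the start, had 8.80 in WT and 8.34 in UTX TCD, a difference of -0.47. It also overlapped a RefSeq exon of *Ly6e*. The peaks that the authors annotated as intergenic, at chr15:74930301-74930701 and chr15:74934150-74934550, 24550 and 20701 bases before the start, had differences of -0.56 and -0.63 and lay inside the RefSeq gene *Gm39556*, for which no RNA value was used here. No listed peak covered the *Ly6e* start. The other listed peaks of the cluster were lower too, with differences of -1.28 at chr15:74787922-74788322 in an intron of *Gm33174*, and of -0.92 and -0.52 at a pair of intergenic peaks assigned to *Ly6m*. Assignment goes by the nearest promoter, and which gene a distal peak acts on was not tested.

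The peaks were read from the reference genome for letters bound by lymphocyte factors, on both strands: TGANTCA (AP-1), GGAAGT (ETS), TGTGGT (RUNX) and TCAAAG (TCF). TGANTCA takes any middle base and is looser than the usual AP-1 site, which has C or G there. Its counts therefore include other letters. TGTGGT was in 7 of the 15 *Thy1* peaks, with 39.7% of 23907 listed peaks of the same length holding it and 48.8% of those that were lower, as all *Thy1* peaks were. TCAAAG was in 4, against 30.6% of all and 32.0% of the lower, GGAAGT in 3, against 34.8% and 37.6%, and TGANTCA in 2, against 12.8% and 15.5%. Of the 3 *Ly6e* peaks, 1 held GGAAGT, 1 TGTGGT and 1 TCAAAG. Guanine and cytosine made up 62.3% of the *Thy1* promoter peak, with a median of 48.9% over the *Thy1* peaks and 49.4% over all.

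To show the chromatin that differed, 300 bases of 4 peaks follow from GRCm38, plus strand, 5′ to 3′, with matches to these letters in capitals. Of the first, the central and the last 300 bases of a peak, the stretch with the most matches was taken, which was the last for the first peak and the central for the others. They are the *Thy1* peak with the largest difference (chr9:44017992-44018291, intergenic by the authors' annotation and in an intron of *Gm39323*), the farthest upstream (chr9:43975479-43975778, intergenic), the nearest upstream of the promoter peak (chr9:44041083-44041382, touching an exon of *Gm39323*), and the *Ly6e* peak with the largest difference (chr15:74934200-74934499, intergenic by the authors' annotation and inside *Gm39556*). No matches overlapped. A match is a description of letters and shows no binding.
*Thy1*, 25293 bases upstream: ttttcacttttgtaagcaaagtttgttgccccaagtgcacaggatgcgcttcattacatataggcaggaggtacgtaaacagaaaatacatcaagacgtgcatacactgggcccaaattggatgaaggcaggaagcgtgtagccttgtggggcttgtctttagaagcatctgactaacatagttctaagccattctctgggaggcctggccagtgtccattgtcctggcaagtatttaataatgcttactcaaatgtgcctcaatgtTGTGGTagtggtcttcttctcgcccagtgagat
*Thy1*, 67755 bases upstream: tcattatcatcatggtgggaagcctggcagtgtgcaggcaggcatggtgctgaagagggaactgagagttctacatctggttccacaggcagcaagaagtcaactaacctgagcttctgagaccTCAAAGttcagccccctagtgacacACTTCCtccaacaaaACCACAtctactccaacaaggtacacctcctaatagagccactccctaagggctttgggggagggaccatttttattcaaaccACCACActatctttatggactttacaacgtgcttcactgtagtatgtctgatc
*Thy1*, 2151 bases upstream: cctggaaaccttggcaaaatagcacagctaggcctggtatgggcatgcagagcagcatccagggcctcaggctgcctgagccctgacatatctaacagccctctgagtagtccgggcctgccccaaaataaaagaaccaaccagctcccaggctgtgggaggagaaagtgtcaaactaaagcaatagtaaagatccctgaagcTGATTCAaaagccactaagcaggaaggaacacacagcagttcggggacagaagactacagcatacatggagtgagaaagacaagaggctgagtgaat
*Ly6e*, 20701 bases upstream: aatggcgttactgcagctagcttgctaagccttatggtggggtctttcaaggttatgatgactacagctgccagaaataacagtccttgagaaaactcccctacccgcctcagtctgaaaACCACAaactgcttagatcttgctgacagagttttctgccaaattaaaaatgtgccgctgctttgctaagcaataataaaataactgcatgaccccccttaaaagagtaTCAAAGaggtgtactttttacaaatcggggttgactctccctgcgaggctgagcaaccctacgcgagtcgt
The first holds a RUNX match. The second holds TCF, ETS and 2 RUNX matches, the last 3 on the minus strand. The third holds a match to TGANTCA with T in the middle, which is not the usual AP-1 site. The fourth holds a RUNX match on the minus strand and a TCF match.

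Genes most like each member were those with the smallest root mean square difference of log2 values, centred per gene, over the 6 libraries, among 14458 other tested genes. For *Thy1* they were *Acsbg1*, an acyl-CoA synthetase, *Slc16a10*, an aromatic amino acid transporter, *Adgrg3*, an adhesion G protein-coupled receptor, *Ccr4*, a chemokine receptor, and *Gm5547*. Their differences from *Thy1* ran from 0.099 to 0.116, against a median of 1.236 over all. *Ccr4* had 682, 682 and 731 normalized counts in WT and 171, 162 and 98.0 in UTX TCD (log2 fold change -2.32 ± 0.20 SE). Like *Thy1*, all 5 were lowest in UTX TCD replicate 3. For *Ly6e* the nearest were *Lrrc24*, *Dync2i1* and *Dynll2*, at 0.019 to 0.031 against a median of 0.39. *Dynll2*, a dynein light chain, had 4952 ± 470 in WT and 8161 ± 116 in UTX TCD (0.72 ± 0.07). For *Ly6a* they were *Mboat1*, *Itfg2* and *Mid1ip1*, at 0.032 to 0.044 against 0.22. Likeness chose these genes on the same libraries, so no p-value is given for them. For *Ly6c1* (*Akap14*, *Selp*) and *Ly6d* (*Spib*, *Card10*, *Calml4*) the likeness lay between genes of few reads.

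The wider LY6/uPAR family was mostly silent, with 2 large falls. Of 38 other family genes, 37 were listed and 7 tested, with 0 called higher and 2 lower by limma. In the higher direction 2 had an unadjusted p under 0.05, edgeR called 0 and DESeq2 called 1. The calls are 28.6% of those tested, against 17.6% of all, with a median log2 fold change of 0.18. With library sums made equal, limma called 4 of the 7. *Lypd6b*, a GPI-anchored modulator of nicotinic receptors in neurons, had 6213, 6233 and 6366 normalized counts in WT and 288, 374 and 216 in UTX TCD. WT cells thus held 21.4 times the UTX TCD mean, with no library of either genotype near the other (log2 fold change -4.45 ± 0.17 SE, limma adjusted p = 2.32e-07, n = 3 per genotype). *Plaur*, the urokinase receptor, had 9091, 7685 and 8945 in WT and 2054, 2014 and 1818 in UTX TCD (-2.13 ± 0.08, adjusted p = 2.24e-07), and was the most abundant gene of the list. Of the other tested genes, *Lynx1* had 203 ± 30.6 and 291 ± 55.8 with an adjusted p of 0.0543, and *Ly6g5b*, *Ly6i*, *Ly6k* and *Ly6a2* did not pass. The remaining 30 listed genes were below the mean needed for the test, 7 of them at 0 in every library.

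*Lypd6b* and *Plaur* differed from *Thy1* in their chromatin. Of 10 peaks assigned to *Lypd6b*, 7 were lower and 3 higher, the largest difference being -2.66 at chr2:49852797-49853197 in intron 1, where UTX TCD had 15.8% of the WT mean. The 3 higher peaks, by 0.43, 0.35 and 0.69, were the farthest upstream and lay in introns of a neighbouring gene. *Plaur* had 3 peaks, with a pair of promoter peaks at differences of -0.53 and -0.44 and a peak in intron 3 at 0.42.

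A list of other surface proteins, chosen as GPI-anchored, changed in both directions. Of 18, 15 were tested, 7 were called higher and 3 lower, which is 66.7%, against 17.6% of all genes tested, and the median log2 fold change was 0.36. The list wrongly held *Ulbp1*, which in the mouse encodes a transmembrane protein. Without it, 14 were tested, 6 were called higher and 3 lower, which is 64.3%, with a median of 0.34. *Nt5e*, the ecto-nucleotidase CD73, rose from 326, 811 and 315 normalized counts in WT to 3579, 3496 and 4788 in UTX TCD (log2 fold change 3.16 ± 0.32 SE, adjusted p = 8.58e-05). *Bst2* (tetherin) rose from 4350 ± 400 to 8979 ± 756 (1.05 ± 0.08, adjusted p = 1.84e-05), as did *Ulbp1*, a ligand of NKG2D, from 901 ± 8.78 to 2040 ± 222 (1.17 ± 0.09, adjusted p = 1.86e-05). *Cd160*, an HVEM-binding receptor of cytotoxic cells, fell from 3239 ± 151 to 724 ± 171 (-2.18 ± 0.14, adjusted p = 7.83e-06). *Cd52*, the most abundant gene of the list, had 94577 ± 12811 and 71518 ± 4953 and did not pass the fold limit, at -0.40, although it did without WT replicate 2, at -0.51. *Thy1* was thus lower beside anchored proteins that moved both ways.

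Few of the genes that build and remodel the anchor were called. Of 33, 31 were tested, 2 were called higher and 1 lower, which is 9.68%, against 17.6% of all genes tested, and the median log2 fold change was -0.10. *Dpm3*, a subunit of dolichol-phosphate mannose synthase, fell from 1142 ± 154 to 728 ± 68.7 (-0.64 ± 0.12 SE, adjusted p = 0.00252). *Piga*, the catalytic subunit of the first step, rose from 8066 ± 170 to 11436 ± 444 (0.50 with an SE of 0.045, adjusted p = 4.29e-05), and *Pgap2*, a lipid remodelling factor, from 595 ± 24.7 to 849 ± 81.6 (0.51 ± 0.10, adjusted p = 0.00358). Both lay just past the fold limit. *Piga* fell short of it without WT replicate 1, at 0.49, and without UTX TCD replicate 3, at 0.47. *Pgap2* fell short of it without WT replicate 3, at 0.48, and without UTX TCD replicate 1, at 0.44. *Pigm*, a mannosyltransferase, had the highest mean, with 13116 ± 730 and 14845 ± 653 (0.18 ± 0.05).

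Of 11 genes for Thy1 partners in membrane rafts or on facing cells, 1 was called higher and 2 lower, which is 27.3%, against 17.6% of all genes tested, with a median log2 fold change of -0.17. *Itgam*, the integrin αM subunit that binds Thy1, fell from 449 ± 13.1 to 75.8 ± 14.0 normalized counts (-2.57 ± 0.17 SE, adjusted p = 8.10e-06). *Flot1*, a raft scaffold, fell from 11500 ± 1134 to 6189 ± 452 (-0.89 ± 0.08, adjusted p = 4.09e-05), and *Itgb3*, the integrin β3 subunit, rose from 1439 ± 46.1 to 2113 ± 201 (0.55 ± 0.08, adjusted p = 6.97e-04). Without UTX TCD replicate 3 *Itgb3* was at 0.47, under the fold limit. The kinases *Lck* and *Fyn* did not pass, with *Lck*, the most abundant, at 175340 ± 6091 and 155913 ± 4143 and *Fyn* at 63085 ± 1306 and 64784 ± 1108.

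Interferon-inducible genes, the group to which *Ly6e* belongs by textbook knowledge, were higher. Of 16, all tested, 13 were called higher and 0 lower, by limma as well as by edgeR and DESeq2, and all 16 had an unadjusted p under 0.05 in the higher direction and 0 in the lower. That is 81.2%, against 17.6% of all genes, with a median log2 fold change of 1.1. *Rsad2* (viperin) rose from 1204, 1185 and 1237 to 11386, 11769 and 8048 (3.08 ± 0.13 SE, adjusted p = 4.75e-07), *Ifit3* from 3383 ± 728 to 20126 ± 3348 (2.58 ± 0.16, adjusted p = 6.50e-06), *Oasl2* from 2560 ± 709 to 12835 ± 2007 (2.35 ± 0.20, adjusted p = 3.03e-05) and *Usp18* from 4019 ± 449 to 15015 ± 3025 (1.89 ± 0.14, adjusted p = 1.51e-05). *Ly6e*, at 0.68, lay below the median of this list, and its UTX TCD libraries were even. The order of the UTX TCD libraries varied within the list. *Rsad2* and *Usp18* were lower in replicate 3 than in replicates 1 and 2. *Irf7* was about even, at 36053, 38041 and 35925, and *Ifi27l2a* was highest in replicate 3, at 15546, 16784 and 17778. Of 24 peaks assigned to 11 of the genes, 22 were higher and 2 lower, where 31.2% of all listed peaks were lower.

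T cell identity genes are given beside *Thy1* as a description. Of 10, 0 were called by limma, by edgeR or by DESeq2, against 17.6% of all genes called by limma, while 8 had an unadjusted limma p under 0.05, 7 of them lower, and the median log2 fold change was -0.18. Leaving out WT replicate 2, UTX TCD replicate 1 or UTX TCD replicate 2 gave 1 call. *Cd2*, an adhesion receptor, was the farthest from 0 at -0.49 ± 0.09 (SE), and *Cd8b1* had -0.37 ± 0.08. *Trac*, the T cell receptor α constant region, had 103618 ± 4604 and 102852 ± 4403. *Thy1* was at -2.41, but this contrast chose it, so nothing is read from its place beside this list.

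**Figure D3:**
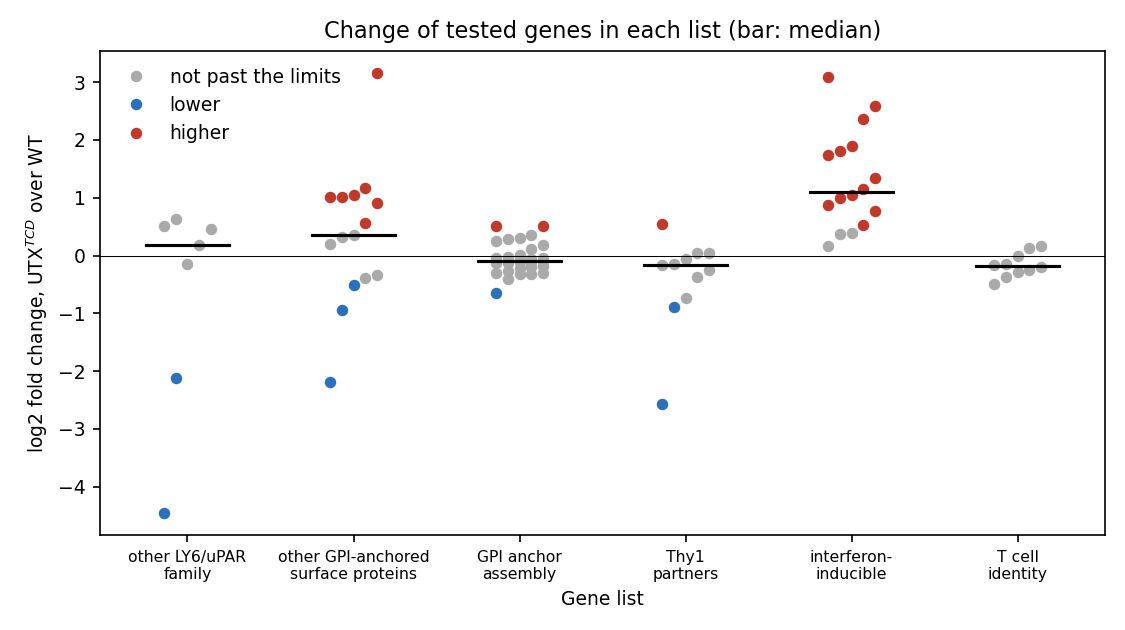
Log2 fold change (UTX TCD over WT, limma) of every tested gene in 6 lists, with points coloured by call and a bar at the median. *Lypd6b* at -4.45 and *Plaur* at -2.13 stand below the LY6/uPAR family, 13 of 16 interferon-inducible genes pass the limits as higher, and no T cell identity gene passes the limits.

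Markers of other cells ranged from absent to abundant, and the abundant ones include genes that T cells express. Summed over the 6 neutrophil markers, each library had 20.2 normalized counts or less, with *S100a8*, *S100a9* and *Retnlg* at 0 and *Csf3r* the most abundant. The 6 monocyte and macrophage markers summed to 135 ± 31.4 in WT and 209 ± 96.1 in UTX TCD (SD, n = 3), led by *Lyz2* in WT and by *Ccr2* in UTX TCD, where replicate 3 held 239 of *Ccr2*. *Ccr2* was called higher and *Csf1r* lower. The 4 CD4 markers summed to 474 ± 54.6 and 381 ± 11.5, led by *Foxp3*, and *Cd4* and *Zbtb7b* were called lower. The 6 B cell markers summed to 2784 ± 264 and 1166 ± 108, led by *Cd79b* in both genotypes, which fell from 2299 ± 320 to 583 ± 98.8 (log2 fold change -1.98 ± 0.15 SE, adjusted p = 1.47e-05), while *Cd79a* had 388 ± 92.8 and 438 ± 78.1, *Ms4a1* was called higher and *Pax5* stayed at 11.1 or less. The part of such cells in the difference in *Thy1* was not tested.

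The 6 fibroblastic stroma markers, whose cells carry *Thy1* too, summed to 1054 ± 305 and 1406 ± 47.3, led by *Col1a1*. *Col1a2* was called higher, from 239 ± 72.6 to 407 ± 58.6. The 5 plasmacytoid dendritic cell markers summed to 102840 ± 10123 and 86086 ± 11419, made up of *Ccr9*, which T cells express, and *Pacsin1*, at 11861 ± 393 and 12813 ± 185, while *Siglech* had 8.89 or less. The 5 endothelial markers summed to 30753 ± 1079 and 35905 ± 2357, almost all *Pecam1*, also a T cell gene, while *Plvap* had 102 ± 8.77 and 109 ± 17.8 and *Cdh5* had 24.8, 21.7 and 9.91 in WT and 0 in every UTX TCD library, too few for the test. The 5 NK and innate lymphoid markers summed to 14843 ± 1169 and 22990 ± 4267, led by *Eomes*, which CD8+ T cells express. *Eomes* and *Rora* were called higher (log2 fold change 0.62 and 0.60, limma adjusted p = 0.00388 and 0.00389), while *Ncr1* and *Klrb1c* had 55.3 or less.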

How the data were processed

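RNA-seq and ATAC-seq were analysed from the deposited tables of 3 WT and 3 UTX TCD libraries per assay. For RNA-seq, the authors aligned reads to mm10 with HISAT2 2.2.1, counted them with featureCounts and divided by DESeq2 size factors, which gave the deposited signal per gene and library. For ATAC-seq, the authors used Bowtie2, Picard, MACS2 and DiffBind, and the deposited values used here were group means on the log2 scale. The authors' comparison columns (fold changes with errors, p-values and false discovery rates) were not used, beyond noting that every listed peak lay under 0.05. Whether a transposase shift was applied is not given in the sources used here.

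Genes with a mean of at least 10 normalized counts entered a linear model (limma 3.58.1, R 4.3.3, moderated with a mean trend) of log2(normalized count + 1), and p-values were adjusted by Benjamini-Hochberg over all 14459 genes. The pseudocount of 1 understates changes of low genes. An exact two-sided permutation test of 3 against 3 libraries cannot go below 0.10. The script was tested on simulated data. Dividing by the value of 1 read gave whole reads for 100% of values (tolerance 0.1), on which edgeR 4.0.16 called 2541 genes and DESeq2 1.42.0 called 2422, against 2538 by limma. Where labels do not say that RNA libraries came from separate mice, p-values measure only the spread between these libraries.

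The members and the gene lists were chosen with earlier results of these data known. Genes named are the members, in each list the called genes with the largest absolute log2 fold change (at most 4) and the gene with the highest mean, all listed genes within 250 kb of *Thy1* or inside the *Ly6* cluster, the 5 (*Thy1*) or 3 (other members) genes most like a member, and cell type markers. Other names were chosen after their values were seen. A few genes that this rule names, and 1 further motif that was scanned, are not reported. Exons and positions came from RefSeq for GRCm38.p6, and 2 of the 6 members, *Ly6c1* and *Ly6c2*, were in the RefSeq promoter table. Alternatives covered pseudocount, filter, scaling, test, replicate block, fold limit, peak limits and each library left out.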

Additional observations from a re-analysis of the deposited data

How the results depend on the processing

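The genotype difference of *Thy1* stayed between -2.53 and -2.20 when each library was left out and between -2.41 and -2.35 under other pseudocounts, filters, scalings, tests and the replicate block. *Ly6e* stayed between 0.64 and 0.76, *Ly6a* between 0.08 and 0.25, *Ly6c1* between 0.31 and 0.74 and *Ly6d* between 0.54 and 1.19. Scaling each library to the same sum moved the median log2 fold change by 0.06 and TMM by 0.00. Calls over all genes numbered 2538, with 2162 to 2572 when a library was left out. With a replicate block they numbered 2474. Same-numbered libraries deviated together with r of 0.305, -0.20 and 0.09, so not every library was closest to its own number. With 3 libraries per genotype, these values cannot settle whether the numbers pair the libraries. The LY6/uPAR list went from 2 calls to 4 with no filter on low counts and to 4 when library sums were made equal, and ranged from 2 to 3 when a library was left out. It had 3 with the block. The anchor assembly list went from 3 calls to 1 at a fold limit of 1.5, and ranged from 2 to 3 when a library was left out, and T cell identity genes ranged from 0 to 1. For the last, the cause was not tested. The 14 member peaks lower by more than 0.5 became 8 at a limit of 1 and 3 within 10 kb of a start site, 12 and then 8 and 3 at *Thy1*, and 2 and then 0 and 0 at *Ly6e*, since stricter limits leave fewer peaks. Among 49 other named genes, 715 of 727 values kept their direction and call, 5 lost the call, 4 gained it and 3 changed sign. The last were uncalled values with a library left out, *Ly6g6g* (range -1.14 to 0.22) and, at -0.005 and -0.15, *Ly6k* (range -0.15 to 0.49). Depth limits *Ly6c1*, *Ly6c2* and *Ly6d*, which had 3 to 23 reads per library.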

Other observations

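*Ly6a2*, a close relative of *Ly6a*, differed between libraries of the same genotype. It had 39.6, 33.6 and 1427 normalized counts in WT replicates 1 to 3 and 33.7, 1071 and 139 in UTX TCD replicates 1 to 3. The higher libraries, WT replicate 3 and UTX TCD replicates 2 and 3, were also the deepest, with 175462433 reads or more against 146456724 or fewer, and the labels give no batch. Any part of depth in this difference was not tested. *Sp140l2*, chosen after its values were seen, was high in the same libraries, at 80.2, 71.1 and 423 in WT and 78.7, 488 and 414 in UTX TCD. So was *Trbv26*, a T cell receptor β variable segment, at 1866, 1927 and 6488 in WT and 1993, 6035 and 5854 in UTX TCD. *Thy1*, *Ly6a* and *Ly6e* did not split the libraries this way.

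*Izumo1r*, the GPI-anchored folate receptor family member of regulatory and anergic T cells, paired lower chromatin with RNA that was not lower. All 7 of its listed peaks were lower in UTX TCD, with differences from -2.50 to -0.31. Its RNA was at 3972, 4815 and 3999 normalized counts in WT and 5284, 5601 and 5501 in UTX TCD (log2 fold change 0.36 ± 0.08 SE, limma adjusted p = 0.00496), higher in every UTX TCD library but under the fold limit. It was named after its values were seen. *Nt5e*, by contrast, had 3 listed peaks, all higher, by 0.26 to 1.18, with higher RNA, and all 8 listed *Art2b* peaks were higher.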
